A study of Homo sapiens with 4 samples.

Results

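The RNAs described here encode 43 proteins that carry glucose carbon from the cell surface through glycolysis, pyruvate and the citric acid cycle. They were measured in human fibroblasts that were young or had stopped dividing. The genes were chosen by name from the pathway. For each, the values of all its annotated transcripts were summed, and protein-coding transcripts were also summed apart. All 43 were found in the files, among 51048 gene symbols of which 19386 are protein-coding, and they comprised 458 annotated transcripts. By where their proteins work, 18 were cytosolic glycolytic enzymes and 20 were enzymes of the mitochondrial matrix. The other 5 were the plasma membrane glucose transporter SLC2A1, the pyruvate carrier subunits MPC1 and MPC2 of the inner membrane, and MDH1 and GOT1, the cytosolic arm of the malate-aspartate shuttle.

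WI-38, an established cell line, consists of fibroblasts from human fetal lung that divide a limited number of times. There were 4 groups with 1 library in each: mitoplasts of senescent cells at population doubling level 60, mitoplasts of young cells at level 21, whole senescent cells at level 60 and whole young cells at level 21. All were grown in the same medium, and the labels name no drug or genetic change. A mitoplast is a mitochondrion without its outer membrane. Here it was prepared with the detergent CHAPS and swelling, with RNase A given before and after the pellet was collected. All values are those of 1 cell line. With 1 library a group, no difference below has a replicate check, no test of conditions is possible, and a library cannot be told apart from its condition. In such bulk RNA, fewer cells of a kind and less RNA per cell cannot be told apart.

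Glycolysis splits glucose to pyruvate in the cytosol. Lactate dehydrogenase can turn the pyruvate into lactate, or the mitochondrial pyruvate carrier can bring it into the matrix. There the pyruvate dehydrogenase complex makes acetyl-CoA, citrate synthase joins it to oxaloacetate, and the cycle oxidises it. All of these proteins, including those of the matrix, are encoded in the nucleus and made in the cytosol. Replicative senescence of fibroblasts is known to come with a change in how cells use glucose.

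Levels are in FPKM, a fragment number scaled to transcript length and to the mapped fragments of the library, so that they can be set side by side between genes. The ratio of 2 libraries is given as log2((A + 1)/(B + 1)) of FPKM. A gene was counted if it had 5 FPKM or more in a library of the pair and was above 0 in both, and it was called higher or lower past a log2 ratio of 1. The files hold no counts, so the depth is unknown, and no interval can be given. A value of exactly 0 may be a failed estimate: 1893 protein-coding genes reached 50 FPKM in the young whole-cell library, and of these 13.6% had a 0 in senescent mitoplasts, 5.81% in young mitoplasts and 2.75% in senescent whole cells. The number of protein-coding genes that reached 5 FPKM was 4492 in senescent mitoplasts, 5937 in young mitoplasts, 6492 in senescent and 6906 in young whole cells. All 8 fibroblast markers examined, COL1A1 among them, were above 0 in both whole-cell libraries. Summed markers of epithelium were at 22.7 FPKM in senescent and 23.0 FPKM in young whole cells, mostly KRT18, and those of endothelium and blood were under 1 FPKM. MKI67, a proliferation marker, was at 0.264 FPKM in senescent and 12.1 FPKM in young whole cells. Of 8 mRNAs encoded by mitochondrial DNA, 8 were higher in young mitoplasts than in young whole cells, with a median log2 ratio of 1.98. In senescent cells 7 of the 8 had a 0 in mitoplasts and 6 had a 0 in whole cells, so the fraction could not be checked in the same way there. ACTB, a cytosolic actin mRNA, remained at 533 FPKM in senescent mitoplasts and 3176 FPKM in young mitoplasts, against 3786 FPKM in senescent whole cells and 5349 FPKM in young whole cells. MALAT1, another RNA from outside mitochondria, had the opposite order in mitoplasts, at 507 FPKM in the senescent and 89.0 FPKM in the young library. NEAT1, also from outside, was listed at 0 in senescent mitoplasts and was at 2.67 FPKM in young ones. VWF, an endothelial marker, was at 23.3 FPKM in senescent mitoplasts, and PTPRC, a leukocyte marker, at 12.4 FPKM in young mitoplasts. The part of these levels in the results below was not tested.

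Of the 43 genes, 30 were above 0 in senescent mitoplasts, 38 in young mitoplasts, and 36 in each whole-cell library. The summed level of the 18 cytosolic glycolytic enzymes was 2849 FPKM in senescent and 3623 FPKM in young whole cells. In mitoplasts it was 1111 FPKM in senescent and 5714 FPKM in young mitoplasts. The 20 matrix enzymes summed to 477 FPKM in senescent and 456 FPKM in young whole cells. Their sum in mitoplasts was 168 FPKM in the senescent and 645 FPKM in the young library. The glycolytic sum was thus 5.97 times the matrix sum in senescent whole cells and 7.94 times it in young whole cells, 6.62 times in senescent mitoplasts and 8.85 times in young mitoplasts. That quotient is taken within a library and does not depend on the scaling between libraries. The young library had the higher quotient in both fractions, and it did so too with protein-coding transcripts alone, at 8.44 in senescent against 11.4 in young whole cells and 8.62 in senescent against 16.2 in young mitoplasts. Assembled transcripts are not in these sums, and those in the locus of PDK1, a matrix enzyme, held 298 FPKM in young whole cells. With assembled transcripts added the order in whole cells turns, so it depends on the transcripts used, while the order in mitoplasts stays.

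**Figure D1:**
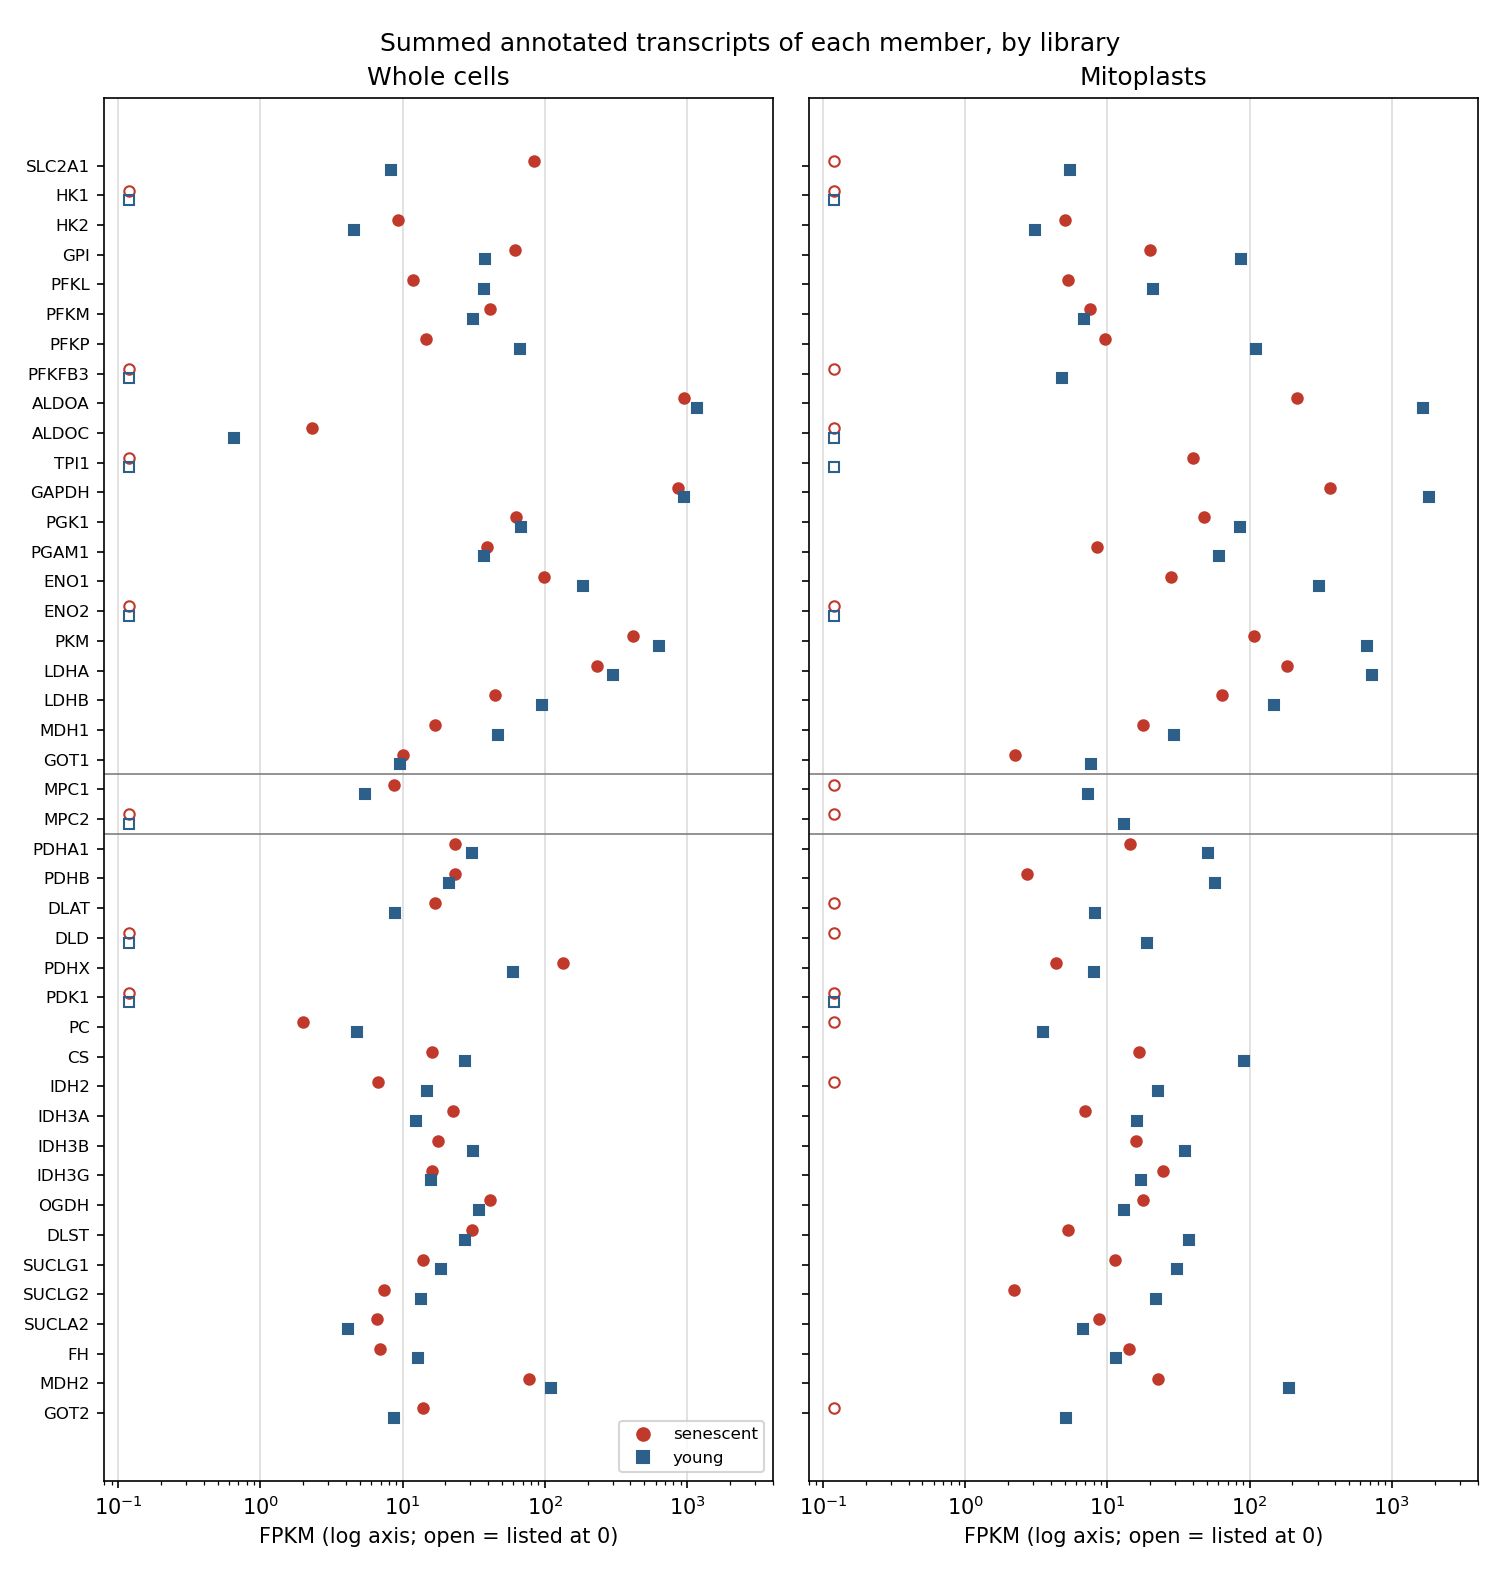
Level of each gene in FPKM on a log axis in the 4 libraries, whole cells on the left and mitoplasts on the right, with 1 point per gene and library; an open marker at the left edge is a gene listed at 0. ALDOA, GAPDH, PKM and LDHA stand above the other enzymes in all 4 libraries, and the matrix enzymes lie mostly below 50 FPKM.

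With annotated transcripts alone, the RNA of a glucose transporter showed the widest gap of the counted genes between senescent and young whole cells. SLC2A1, the GLUT1 glucose transporter, was at 83.8 FPKM in senescent and 8.25 FPKM in young whole cells, a log2 ratio of 3.20. In mitoplasts it was listed at 0 in the senescent library and was at 5.49 FPKM in the young one. All of it lay in a protein-coding transcript of 3670 nt. Assembled transcripts in a locus of SLC2A1 alone held 22.3 FPKM in senescent mitoplasts and 0 in young ones, so the order of the mitoplast libraries turns with those added. The young whole-cell file also held 14.1 FPKM of assembled transcripts in a locus of SLC2A1 alone, and with those added the ratio was 1.86. SLC2A1 and PFKP kept a ratio past 1 in the same direction under each of the 9 alternatives examined.

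In whole cells, 34 of the 43 genes could be counted. Of these, 2 were higher in senescent cells, SLC2A1 and PDHX, where 11.5% of 7222 protein-coding genes were higher. Another 5 were lower, PFKP, PFKL, MDH1, LDHB and IDH2, where 21.1% of protein-coding genes were lower. The remaining 27 lay between these bounds, so the share past a ratio of 1 was 20.6% of the members, against 32.6% of all protein-coding genes. Under median-of-ratios scaling, which scales each library by its typical gene, 3 were higher and 3 lower, since LDHB and IDH2 came inside the bound and DLAT passed it at 1.03. The median of all protein-coding genes was then −0.045. Shares of all protein-coding genes past the bound are not given under this scaling, here or below. Its counts of members therefore have no background beside them. In all, 7 genes were listed at 0 in both libraries (HK1, PFKFB3, TPI1, ENO2, DLD, PDK1 and MPC2), and ALDOC and PC stayed under 5 FPKM.

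The first step of glycolysis is the phosphorylation of glucose by hexokinase. HK2 was at 9.22 FPKM in senescent and 4.59 FPKM in young whole cells (log2 ratio 0.87), and at 5.07 FPKM in senescent and 3.07 FPKM in young mitoplasts (0.57). HK1, the other hexokinase of fibroblasts, was listed at 0 in all 4 libraries under the identifiers that the tables name. The locus that holds HK1 alone carried transcripts with identifiers missing from those tables, which summed to 217 FPKM in senescent and 199 FPKM in young whole cells. In mitoplasts the sum was 108 FPKM in the senescent and 248 FPKM in the young library. The 0 therefore cannot be read as absence of HK1. GPI, which turns glucose 6-phosphate into fructose 6-phosphate, was at 61.9 FPKM in senescent and 37.7 FPKM in young whole cells (0.70). A locus that GPI shares with other genes also carried transcripts with identifiers outside the tables. They held 103 FPKM in senescent and 196 FPKM in young whole cells, and which gene they belong to is not known.

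Phosphofructokinase, the committing step of glycolysis, showed a different mixture of its 3 subunits. PFKP, the platelet-type subunit, was at 14.6 FPKM in senescent and 66.4 FPKM in young whole cells, a log2 ratio of −2.11. PFKL, the liver-type subunit, was at 11.9 FPKM in senescent and 37.4 FPKM in young whole cells, a log2 ratio of −1.57 that was −0.88 with protein-coding transcripts alone. PFKM, the muscle-type subunit, was at 41.4 FPKM in senescent and 31.2 FPKM in young whole cells, with a log2 ratio of 0.40. PFKM was the only subunit of the family that was not lower past the bound.

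As shares of the 3 subunits, PFKM made up 61.1% in senescent and 23.1% in young whole cells, while PFKP made up 21.4% in senescent and 49.2% in young whole cells. The shares of PFKL were 17.5% in senescent and 27.7% in young whole cells. With protein-coding transcripts alone the young shares were 25.9% for PFKM and 55.1% for PFKP, and the senescent ones did not move. All PFKM of both whole-cell libraries was assigned to a protein-coding transcript of 585 nt, far shorter than the 3224 nt transcript that held it in young mitoplasts. In mitoplasts PFKP made up 42.6% in the senescent library, none of it in a protein-coding transcript, and 79.9% in the young library. PFKFB3, which makes an activator of phosphofructokinase, was at 4.76 FPKM in young mitoplasts and listed at 0 elsewhere. Transcripts of its own locus with identifiers outside the tables held 12.7 FPKM in senescent and 37.8 FPKM in young whole cells.

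ALDOA and GAPDH, which split and oxidise the sugar phosphates, had the highest levels of the 43 genes, and with PGAM1 they differed little between senescent and young whole cells. ALDOA, the aldolase of most tissues, was at 951 FPKM in senescent and 1173 FPKM in young whole cells (log2 ratio −0.30). GAPDH, which makes the first NADH of the pathway, was at 863 FPKM in senescent and 953 FPKM in young whole cells (−0.14, and 0.07 under median-of-ratios scaling). PGAM1, phosphoglycerate mutase, was at 39.2 FPKM in senescent and 37.6 FPKM in young whole cells (0.06). These ratios fall inside the range between the lower and upper quartile of all protein-coding genes, −0.87 to 0.39.

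PGK1, which makes the first ATP of the pathway, was at 62.9 FPKM in senescent and 67.9 FPKM in young whole cells (−0.11). At least 93.3% of this named level lay in a processed transcript of 702 nt in every library. Transcripts of its own locus with identifiers outside the tables held 57.5 FPKM in senescent and 50.2 FPKM in young whole cells. In mitoplasts they held 25.2 FPKM in the senescent and 73.3 FPKM in the young library. With those added, the log2 ratio of senescent to young was 0.03 in whole cells and −1.11 in mitoplasts, against −0.82 without them. The brain-type aldolase ALDOC was at 2.29 FPKM in senescent and 0.66 FPKM in young whole cells; it was listed at 0 in both mitoplast libraries. TPI1, triose phosphate isomerase, was listed at 0 in 3 libraries and was at 40.0 FPKM in senescent mitoplasts, in a retained-intron transcript of 427 nt. Its 4 pseudogenes together reached 0.181 FPKM at most, so the missing value was not found in those copies. GAPDH has 64 named pseudogenes in the tables, which held at most 0.905% of the sum of gene and copies. For PGAM1 the share was at most 5.05%, and the sources used here do not say how reads were split between such copies.

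Neither ENO1 nor PKM, the last steps to pyruvate, passed the bound in whole cells. ENO1, the enolase of most tissues, was at 98.2 FPKM in senescent and 187 FPKM in young whole cells, a log2 ratio of −0.92 that was −1.01 with assembled transcripts of its locus added. The neuronal enolase ENO2 was listed at 0 in all 4 libraries. PKM, pyruvate kinase, which makes pyruvate and ATP, was at 418 FPKM in senescent and 631 FPKM in young whole cells (−0.59).

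PKM is spliced to contain either exon 9, which gives the M1 form typical of muscle, or exon 10, which gives the M2 form typical of dividing cells. The exons are shown because the assignment of reads to the 2 forms rests on the bases that differ between them. Each is 167 nt long, with 105 identical positions (62.9%) and 62 that differ, and capitals mark the bases that differ. They are given 5′ to 3′ on the minus strand from GENCODE release 29 and GRCh38, exon 9 at chr15:72203022-72203188 and exon 10 at chr15:72202454-72202620, whereas the files were made on hg19.
PKM exon 9: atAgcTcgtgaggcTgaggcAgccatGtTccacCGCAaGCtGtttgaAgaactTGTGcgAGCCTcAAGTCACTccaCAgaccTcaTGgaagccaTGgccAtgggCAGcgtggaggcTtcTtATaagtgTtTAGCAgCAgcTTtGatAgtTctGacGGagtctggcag
PKM exon 10: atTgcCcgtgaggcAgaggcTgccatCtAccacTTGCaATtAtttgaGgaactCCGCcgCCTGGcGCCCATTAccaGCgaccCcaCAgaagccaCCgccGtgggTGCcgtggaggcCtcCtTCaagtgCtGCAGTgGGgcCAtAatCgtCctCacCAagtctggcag

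All annotated PKM signal lay in the 3 transcripts with exon 10 and without exon 9, in senescent as in young cells and in mitoplasts as in whole cells. They held the 418 FPKM of senescent and the 631 FPKM of young whole cells. In mitoplasts they held 107 FPKM in the senescent and 670 FPKM in the young library. The 6 transcripts with exon 9 were listed at 0 in all 4 libraries, as were 12 transcripts that hold neither exon. Assembled transcripts in a locus of PKM alone held 145 FPKM in senescent whole cells, 44.7 FPKM in senescent mitoplasts and 226 FPKM in young mitoplasts, and which exon they contain is not known. The M1 form was therefore listed at 0 among annotated transcripts, and how much of it the assembled ones hold was not tested.

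Lactate dehydrogenase is a tetramer of LDHA, the subunit suited to making lactate, and LDHB, the subunit suited to using it. LDHA was at 231 FPKM in senescent and 300.4 FPKM in young whole cells (log2 ratio −0.38). LDHB was at 44.4 FPKM in senescent and 95.1 FPKM in young whole cells, a log2 ratio of −1.08 that came to −0.87 under median-of-ratios scaling and −0.81 with assembled transcripts added. LDHA made up 83.9% of the pair in senescent and 75.9% in young whole cells. Protein-coding transcripts alone gave lower shares, 69.9% in senescent and 54.5% in young whole cells. The gap comes from transcripts typed as targets of nonsense-mediated decay, which led LDHA in all 4 libraries with 45.3% to 66.2% of its level. In mitoplasts LDHA made up 74.3% in the senescent and 82.9% in the young library, the opposite order to whole cells.

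**Figure D2:**
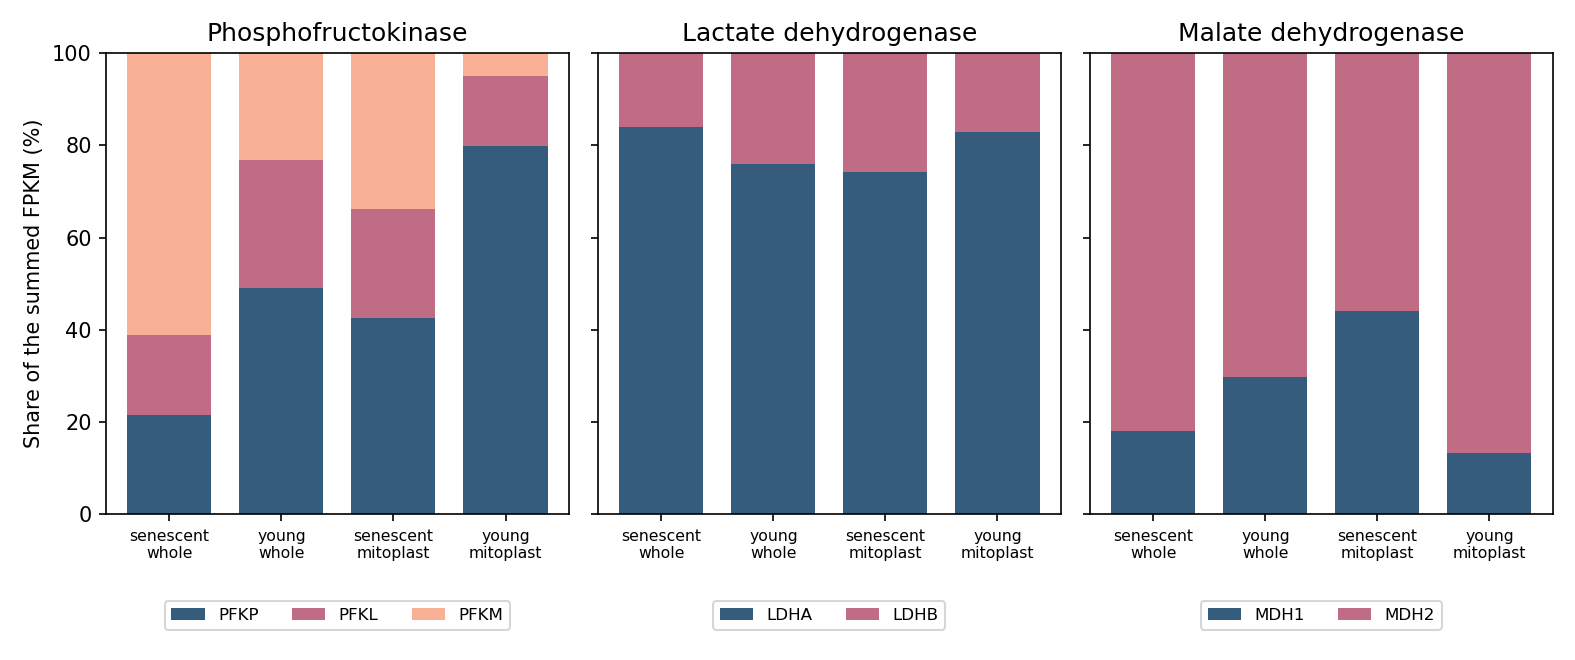
Share of each subunit in the summed FPKM of its family, in percent, for phosphofructokinase, lactate dehydrogenase and malate dehydrogenase, with 1 bar per library. PFKM takes 61.1% of phosphofructokinase in senescent whole cells and 23.1% in young ones.

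At the entry to the mitochondrion, the pyruvate dehydrogenase complex gave no common direction in whole cells. PDHX, which holds the E3 subunit in the complex, was at 135 FPKM in senescent and 59.8 FPKM in young whole cells, a log2 ratio of 1.16 that was 0.94 with assembled transcripts added. In senescent whole cells it was divided over a protein-coding transcript of 584 nt with 50.2 FPKM, a processed transcript of 545 nt with 46.1 FPKM and a protein-coding transcript of 952 nt with 38.6 FPKM. The 584 nt transcript was listed at 0 in young whole cells, where the other PDHX transcripts held 34.4 FPKM and 25.4 FPKM. The rest of the complex did not pass the bound.

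PDHA1, the catalytic E1 alpha subunit, was at 23.2 FPKM in senescent and 30.5 FPKM in young whole cells (−0.38). PDHB, the E1 beta subunit, was at 23.2 FPKM in senescent and 21.1 FPKM in young whole cells (0.13). DLAT, the E2 core, was at 16.9 FPKM in senescent and 8.82 FPKM in young whole cells (0.87), all in a transcript typed as a target of nonsense-mediated decay. DLD, the E3 subunit shared with 2-oxoglutarate dehydrogenase, appeared only in young mitoplasts, at 18.8 FPKM and in a transcript of the same type. PDK1, a kinase that switches the complex off, was listed at 0 in all 4 libraries. Assembled transcripts in the locus of PDK1 alone held 298 FPKM in young whole cells and 5.64 FPKM in young mitoplasts, and a transcript with an identifier outside the tables held 20.5 FPKM in senescent whole cells, so its level is unknown.

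The pyruvate carrier and pyruvate carboxylase were near the lower limit. MPC1 was at 8.74 FPKM in senescent and 5.47 FPKM in young whole cells. It was listed at 0 in senescent mitoplasts, against 7.26 FPKM in young ones. Its partner MPC2 was above 0 in young mitoplasts alone, at 13.0 FPKM. PC, which makes oxaloacetate from pyruvate, was at 1.99 FPKM in senescent and 4.79 FPKM in young whole cells. In mitoplasts PC was listed at 0 in the senescent and at 3.55 FPKM in the young library. A transcript of its locus with an identifier outside the tables held 8.59 FPKM in senescent mitoplasts, which turns that order.

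In the citric acid cycle, 1 enzyme passed the bound in whole cells. IDH2, the NADP-dependent isocitrate dehydrogenase, was at 6.76 FPKM in senescent and 14.8 FPKM in young whole cells, a log2 ratio of −1.02 that was −0.80 under median-of-ratios scaling and −0.99 with protein-coding transcripts alone. CS, citrate synthase, was at 16.1 FPKM in senescent and 27.6 FPKM in young whole cells (−0.75). FH, which hydrates fumarate to malate, was at 6.96 FPKM in senescent and 12.8 FPKM in young whole cells (−0.79). OGDH and DLST, the E1 and E2 subunits of 2-oxoglutarate dehydrogenase, had log2 ratios of 0.26 and 0.16, which with assembled transcripts added were −0.01 and −0.29.

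The NAD-dependent isocitrate dehydrogenase has 3 kinds of subunit. The catalytic IDH3A was at 22.6 FPKM in senescent and 12.4 FPKM in young whole cells, a log2 ratio of 0.82 that was −0.11 with protein-coding transcripts alone. IDH3B was at 17.6 FPKM in senescent and 31.2 FPKM in young whole cells (−0.79). The regulatory IDH3G was at 16.1 FPKM in senescent and 15.7 FPKM in young whole cells (0.04). No subunit was higher in senescent whole cells past the bound, either with all transcripts or with protein-coding ones alone. With the latter, IDH3B was at −1.17.

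Succinyl-CoA ligase pairs SUCLG1 with SUCLG2, which makes GTP, or with SUCLA2, which makes ATP. SUCLG2 was at 7.39 FPKM in senescent and 13.5 FPKM in young whole cells (−0.79), and SUCLA2 was at 6.60 FPKM in senescent and 4.14 FPKM in young whole cells (0.57, and −0.13 with identifiers outside the tables added). SUCLG1 was at 14.01 FPKM in senescent and 18.6 FPKM in young whole cells (−0.38). SUCLG2 held 26.4% of the summed family in senescent and 37.3% in young whole cells. SUCLA2 held 23.6% in senescent and 11.4% in young whole cells.

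The malate-aspartate shuttle carries reducing power across the inner membrane and uses a cytosolic and a matrix form of 2 enzymes. The starts of their coding sequences are shown because the matrix forms, MDH2 and GOT2, begin with the targeting sequence that brings the protein into mitochondria, while MDH1 and GOT1 lack one. Each line gives the first 60 bases from the start codon, which is in capitals, from GENCODE release 29 on GRCh38. The start codons begin at base 63589044 of chromosome 2 on the plus strand for MDH1, 76048161 of chromosome 7 on the plus strand for MDH2, 99430565 of chromosome 10 on the minus strand for GOT1 and 58734228 of chromosome 16 on the minus strand for GOT2.
MDH1 coding start: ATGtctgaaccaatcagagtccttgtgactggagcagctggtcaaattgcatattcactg
MDH2 coding start: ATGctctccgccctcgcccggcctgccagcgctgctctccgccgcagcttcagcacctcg
GOT1 coding start: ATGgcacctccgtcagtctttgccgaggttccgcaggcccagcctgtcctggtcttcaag
GOT2 coding start: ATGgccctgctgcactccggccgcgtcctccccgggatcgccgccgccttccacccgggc

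MDH1, the cytosolic malate dehydrogenase, was at 16.96 FPKM in senescent and 46.6 FPKM in young whole cells, a log2 ratio of −1.41. The senescent level lay in a protein-coding transcript of 700 nt and the young level in a retained-intron transcript of 552 nt. With a transcript of its locus whose identifier is outside the tables, at 17.6 FPKM in senescent whole cells, the ratio was −0.42. MDH2, the matrix malate dehydrogenase, was at 77.3 FPKM in senescent and 110.4 FPKM in young whole cells (−0.51), with 71.7% to 85.9% of its level in a retained-intron transcript of 551 nt across the 4 libraries. GOT1, the cytosolic aspartate aminotransferase, was at 10.0 FPKM in senescent and 9.52 FPKM in young whole cells (0.07). GOT2, its matrix form, was at 13.8 FPKM in senescent and 8.69 FPKM in young whole cells (0.61), a direction that became −0.70 with assembled transcripts added. MDH1 made up 18.0% of the malate dehydrogenase pair in senescent and 29.7% in young whole cells. With protein-coding transcripts alone the order turned, with 49.9% in senescent whole cells and 0% in young ones.

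Set against each other, the cytosolic and matrix enzymes did not separate in whole cells. The median log2 ratio of senescent to young was −0.30 over 13 glycolytic enzymes and 0.04 over 17 matrix enzymes, beside −0.26 over all protein-coding genes. Of the 13, 0 were higher and 3 lower past the bound, and of the 17, 1 was higher and 1 lower. The difference of the medians, −0.34, ran from −0.34 to 0.14 over the alternatives, with 0.07 for protein-coding transcripts alone and 0.14 for assembled transcripts added, so its sign depends on the transcripts used.

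**Figure D3:**
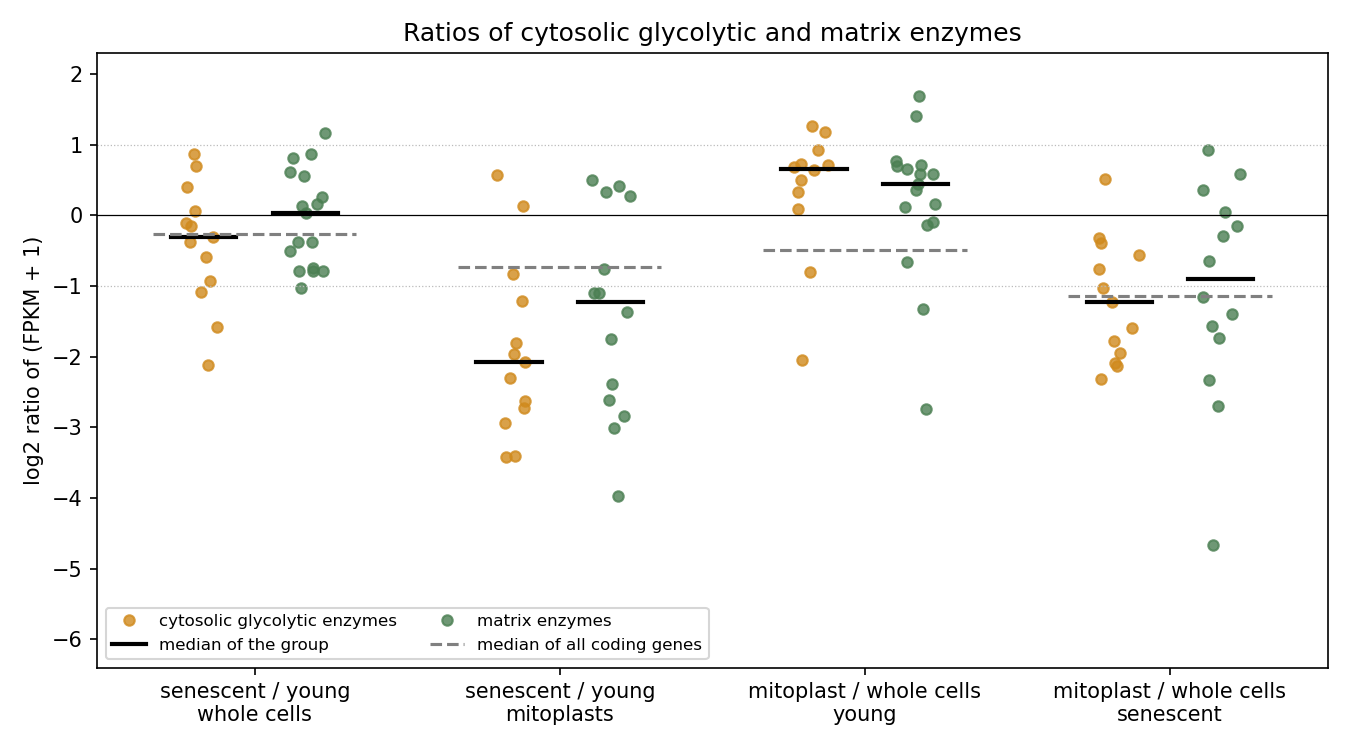
Log2 ratio of each counted gene in the 4 comparisons, with cytosolic glycolytic and matrix enzymes apart; each point is a gene, the bar is the group median and the dashed line is the median of all protein-coding genes. The medians lie near the dashed line in whole cells, and below it in senescent against young mitoplasts, at −2.07 for glycolytic and −1.23 for matrix enzymes.

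In mitoplasts most of the pathway was lower in the senescent library. Of 29 genes that could be counted, 20 were lower in senescent mitoplasts, where 44.2% of 5190 protein-coding genes were lower, and 0 were higher, where 22.6% were higher. Of the 24 genes with 5 FPKM or more in both libraries, 17 were lower and 0 higher, beside 38.8% and 13.2% of 3029 protein-coding genes held to the same minimum. The median log2 ratio was −2.07 over 13 glycolytic enzymes, 10 of them lower, and −1.23 over 14 matrix enzymes, 9 of them lower, beside −0.73 over all protein-coding genes. Relative to that, the medians were −1.34 for glycolytic and −0.51 for matrix enzymes. Under median-of-ratios scaling the median of all protein-coding genes was 0.31, and those of the enzymes were −1.18 for glycolytic and −0.38 for matrix enzymes. The split was then 5 higher and 13 lower, with no matching share of all protein-coding genes.

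Of the 37 genes with 5 FPKM or more in either mitoplast library, 7 were listed at 0 in the senescent one, beside 22.0% of protein-coding genes. These were DLD, SLC2A1, DLAT, MPC1, MPC2, IDH2 and GOT2, to which PFKFB3 and PC add 2 with lower young values. IDH2 was the highest of the 7 in young mitoplasts, at 22.7 FPKM, and GOT2 the lowest, at 5.11 FPKM. The locus of DLAT held 6.17 FPKM in senescent mitoplasts under an identifier outside the tables, and that of GOT2 held 5.60 FPKM of assembled transcripts there, so these 0s too cannot be read as absence. TPI1 alone was listed at 0 in young mitoplasts and above 0 in senescent ones, 1 of the 37, beside 7.85% of protein-coding genes. With members at 0 kept, the matrix median was −2.07 and lay 0.051 below that of the glycolytic enzymes, so the order of the compartments in mitoplasts rests on leaving those out.

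The lowest ratio in mitoplasts was that of PDHB, at 2.73 FPKM in senescent and 57.4 FPKM in young mitoplasts (−3.97). Of the young level, 68.2% lay in a retained-intron transcript of 586 nt that was listed at 0 in the senescent library. PFKP was at 9.54 FPKM in senescent and 111 FPKM in young mitoplasts (−3.41). The senescent PFKP level lay in a processed transcript of 658 nt and 82.5% of the young one in a protein-coding transcript of 453 nt, so the 2 libraries share no PFKP transcript above 0. ENO1 was at 28.1 FPKM in senescent and 309 FPKM in young mitoplasts (−3.41), all of it in 1 protein-coding transcript of 1781 nt.

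Abundant enzymes followed. MDH2 was at 22.6 FPKM in senescent and 190.0 FPKM in young mitoplasts (−3.01). ALDOA was at 216 FPKM in senescent and 1665 FPKM in young mitoplasts (−2.94). In the same direction, GAPDH was at 368 FPKM in senescent and 1818 FPKM in young mitoplasts (−2.30). CS was at 16.6 FPKM in senescent and 91.2 FPKM in young mitoplasts (−2.39). Each of these 4 lay below −1 under median-of-ratios scaling as well, while LDHB, which stood at 63.8 FPKM in senescent and 149 FPKM in young mitoplasts (−1.21), came to −0.30. The mitoplast libraries share no CS transcript above 0, and with protein-coding transcripts alone MDH2 was at −1.91.

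The highest ratios of senescent to young mitoplasts were under the bound. HK2 had 0.57, IDH3G had 0.50 and OGDH had 0.42. IDH3G was at 24.7 FPKM in senescent and 17.2 FPKM in young mitoplasts, and a transcript with an identifier outside the tables held a further 44.0 FPKM in the young library, with which the ratio was −1.28. OGDH was at 17.9 FPKM in senescent and 13.1 FPKM in young mitoplasts, and its ratio with protein-coding transcripts alone was −1.66, since 80.6% of the senescent level lay in a retained-intron transcript of 554 nt. For PDHA1 the ratio was −1.74 with all transcripts and −0.15 with coding ones.

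Between fractions of young cells, both groups of enzymes lay above the median of all protein-coding genes. The median log2 ratio of mitoplasts to whole cells was 0.66 over 12 glycolytic enzymes and 0.44 over 17 matrix enzymes, beside −0.49 over all protein-coding genes, which is 1.16 and 0.93 above it. Of 33 genes counted, 4 were higher in young mitoplasts, GPI, LDHA, PDHB and CS, where 13.4% of 7038 protein-coding genes were higher. Another 3 were lower, PFKM, PDHX and OGDH, where 37.6% of protein-coding genes were lower. A ratio above 0 was found for 23 of the 33, whereas the median of all protein-coding genes, −0.49, lay below 0. Under median-of-ratios scaling 14 were higher and 2 lower, and the median of all protein-coding genes was 0.03. These 2 counts have no matching share of all protein-coding genes.

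CS had the highest ratio, at 91.2 FPKM in young mitoplasts and 27.6 FPKM in young whole cells (1.69). A protein-coding transcript of 551 nt held 75.1% of the mitoplast level and was listed at 0 in young whole cells. PDHB was at 57.4 FPKM in young mitoplasts and 21.1 FPKM in young whole cells (1.40, and 0.57 with coding transcripts alone). LDHA, which works in the cytosol, was at 723 FPKM in young mitoplasts and 300.4 FPKM in young whole cells (1.26). GPI, also cytosolic, was at 86.7 FPKM in young mitoplasts and 37.7 FPKM in young whole cells (1.18), of which 71.3% in mitoplasts lay in a transcript of 529 nt that was listed at 0 in young whole cells. The locus that GPI shares with other genes held a further 120 FPKM in young mitoplasts and 196 FPKM in young whole cells under identifiers outside the tables. The higher genes past the bound were thus 2 of the cytosol and 2 of the matrix.

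At the lower end, PDHX was at 8.10 FPKM in young mitoplasts and 59.8 FPKM in young whole cells (−2.74). PFKM was at 6.81 FPKM in young mitoplasts and 31.2 FPKM in young whole cells (−2.04), and OGDH was at 13.1 FPKM in young mitoplasts and 34.3 FPKM in young whole cells (−1.32, and −0.85 under median-of-ratios scaling). PDHX and OGDH are proteins of the matrix and PFKM of the cytosol. PFKFB3, DLD and MPC2 were listed at 0 in young whole cells and above 0 in young mitoplasts. Of the 35 genes with 5 FPKM or more in either library these are 2, since PFKFB3 was under 5 FPKM, beside 5.66% of protein-coding genes.

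In senescent cells, 0 of 29 counted genes were higher in mitoplasts, where 16.9% of 5498 protein-coding genes were higher, and 16 were lower, where 53.2% were lower. The median log2 ratio of mitoplasts to whole cells was −1.23 over 13 glycolytic enzymes and −0.90 over 14 matrix enzymes, beside −1.13 over all protein-coding genes, so that the enzymes lay 0.09 below and 0.23 above it. Median-of-ratios scaling gave 6 higher and 4 lower, again without a matching share of all protein-coding genes. The medians were then −0.04 and 0.24 beside 0.13 over all protein-coding genes. Of the 35 genes with 5 FPKM or more in either senescent library, 5 were listed at 0 in mitoplasts (SLC2A1, DLAT, MPC1, IDH2 and GOT2), beside 22.1% of protein-coding genes.

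PDHX had the lowest ratio here too, at 4.36 FPKM in senescent mitoplasts and 135 FPKM in senescent whole cells (−4.66). PDHB was at 2.73 FPKM in senescent mitoplasts and 23.2 FPKM in senescent whole cells (−2.70). DLST was at 5.25 FPKM in senescent mitoplasts and 30.6 FPKM in senescent whole cells (−2.33). These 3 are subunits of matrix dehydrogenase complexes, but none of the 3 had a transcript above 0 in both senescent libraries. PFKM, of the cytosol, lay close to DLST, at 7.55 FPKM in senescent mitoplasts and 41.4 FPKM in senescent whole cells (−2.31). With protein-coding transcripts alone the order was another: PFKM was at −3.17, OGDH at −3.24 and PDHB at −1.91, and DLST was at 0 FPKM in senescent mitoplasts.

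The 3 highest ratios stayed under the bound. FH was at 14.2 FPKM in senescent mitoplasts and 6.96 FPKM in senescent whole cells (0.93), but the mitoplast level lay in a processed transcript of 414 nt and the whole-cell level in a coding transcript of 1797 nt. IDH3G was at 24.7 FPKM in senescent mitoplasts and 16.1 FPKM in senescent whole cells (0.58). LDHB was at 63.8 FPKM in senescent mitoplasts and 44.4 FPKM in senescent whole cells (0.51). Under median-of-ratios scaling these were 2.03, 1.73 and 1.69. In neither age did the enzymes of the matrix stand clear of those of the cytosol: the cytosolic median minus the matrix median was −0.33 in senescent cells and 0.23 in young cells, and ran over the alternatives from −0.99 to 0.27 in senescent and from −0.02 to 0.42 in young cells. The ratios of the comparisons share libraries, so their members' values are given side by side and not correlated.

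The kind of transcript that carried the level differed between the groups of enzymes. Protein-coding transcripts held 87.9% of the glycolytic sum in senescent and 87.4% in young whole cells. In mitoplasts they held 70.3% of it in the senescent and 88.4% in the young library. For matrix enzymes the share was 62.2% in senescent and 60.9% in young whole cells. In mitoplasts it was 54.0% in the senescent and 48.3% in the young library. In every library the glycolytic share was above the matrix share. Retained-intron transcripts held 27.7% of the matrix sum in senescent mitoplasts and 31.3% in young mitoplasts, against 14.8% in senescent and 21.8% in young whole cells. Both mitoplast libraries lay above both whole-cell libraries in that share. It rests on few genes, since the 551 nt MDH2 transcript alone held 163 of 202 FPKM in young and 16.2 of 46.5 FPKM in senescent mitoplasts. In whole cells that transcript held 60.3 of 70.5 FPKM in the senescent and 90.5 of 99.7 FPKM in the young library.

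Many of these transcripts are short models. Transcripts under 1 kb held 77.9% of the matrix sum in senescent and 61.5% in young mitoplasts, and 64.1% in senescent and 55.2% in young whole cells, while for glycolytic enzymes the share lay between 38.7% and 42.9% in all 4 libraries. The gene was led by a transcript not typed as protein-coding in 13 of 30 cases in senescent mitoplasts, 10 of 38 in young mitoplasts, 7 of 36 in senescent whole cells and 9 of 36 in young whole cells. The same count was not made over all protein-coding genes, so these numbers cannot be read as a trait of these enzymes. A level in FPKM is divided by transcript length, so a level that rests on a short model weighs more in a sum than the same number of fragments in a long one.

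**Figure D4:**
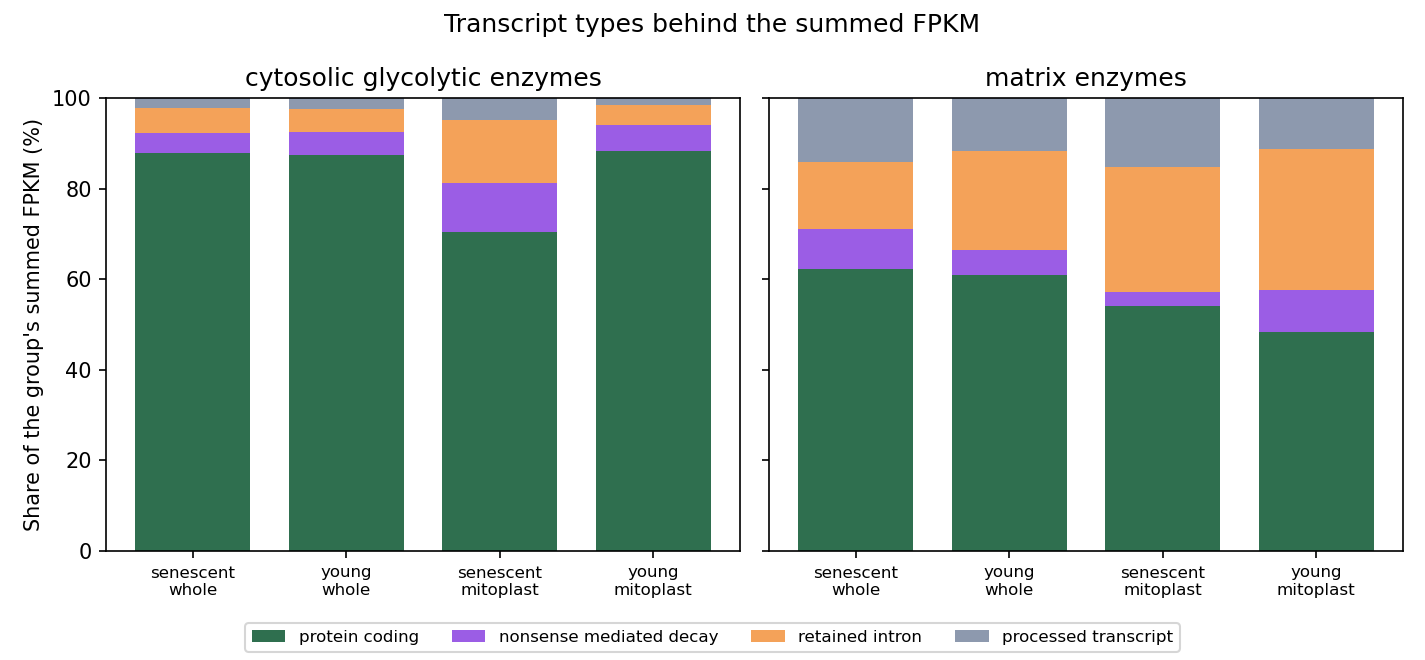
Share of the summed FPKM in each type of annotated transcript, in percent, for cytosolic glycolytic and matrix enzymes, with 1 bar per library. Protein-coding transcripts hold 70.3% to 88.4% of the glycolytic sum and 48.3% to 62.2% of the matrix sum.

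Around the 43 genes, 49 other genes of the same pathways gave a wider frame, of which 27 could be counted in whole cells, 4 higher and 7 lower in senescent cells, beside 11.5% and 21.1% of protein-coding genes, with a median log2 ratio of −0.14. SLC16A3, the MCT4 lactate exporter, was at 2784 FPKM in senescent and 1131 FPKM in young whole cells (1.30). BPGM, which makes 2,3-bisphosphoglycerate, was at 19.1 FPKM in senescent and 7.59 FPKM in young whole cells (1.22). PDK2, a kinase of the pyruvate dehydrogenase complex, was at 50.2 FPKM in senescent and 20.4 FPKM in young whole cells (1.26), all in transcripts not typed as protein-coding. The monocarboxylate transporters gave no common direction, since SLC16A7 was lower, at 17.3 FPKM in senescent and 85.4 FPKM in young whole cells (−2.24).

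The lower genes included PGD and TKT of the pentose phosphate pathway, which branches from glucose 6-phosphate. PGD was at 36.3 FPKM in senescent and 96.1 FPKM in young whole cells (−1.38), and TKT, transketolase, was at 46.7 FPKM in senescent and 142 FPKM in young whole cells (−1.58). TALDO1, transaldolase, did not follow, at 108 FPKM in senescent and 89.1 FPKM in young whole cells (0.28). Beside SLC16A7, PCK2 and PDP2 were also lower. HIF1A, a regulator of glycolytic genes, was at 451 FPKM in senescent and 430 FPKM in young whole cells (0.07). Most of that lay outside protein-coding transcripts, which held 67.2 FPKM in senescent and 33.2 FPKM in young whole cells. The small ratio of HIF1A thus does not hold for its coding transcripts.

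Between mitoplast libraries 18 of the 49 could be counted, with 3 higher and 8 lower in the senescent one, where 22.6% of protein-coding genes were higher and 44.2% lower. Between fractions of senescent cells, 1 of 19 was higher and 10 were lower in mitoplasts, beside 16.9% and 53.2% of protein-coding genes. In young cells, 2 of 26 were higher and 9 lower in mitoplasts, beside 13.4% and 37.6% of protein-coding genes. The median log2 ratio of young mitoplasts to young whole cells was −0.32 for the 26 counted of these 49. It was 0.66 for the counted glycolytic and 0.44 for the counted matrix enzymes among the 43. This contrast is a description of 2 libraries, and the lists were chosen by name.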

How the data were processed

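RNA-seq libraries of WI-38 whole cells and mitoplasts, 1 per group, were used. The deposited values are FPKM, per the file headers, for the same 393483 transcripts in each of 4 files. Per the submitters' processing notes, the build was hg19 and the tools were TopHat2 2.0.14 with Cufflinks 2.2.1 and Cuffdiff, in no stated order. The normalization options, the annotation release and the strand setting are not given in the sources, so antisense reads cannot be told apart. RNA was treated with DNase before a TruSeq library kit, per the labels' protocols.

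From these values, 185591 annotated transcripts were named by identifier through GENCODE release 29 and a table of gene symbols, and 94.1% received a symbol. An identifier found in one file was carried to the other files through the shared tracking identifier. Gene values are sums over annotated transcripts. Assembled transcripts, which held 53.7% to 97.3% of a library's summed FPKM, were left out of the main values. The highest share was that of senescent mitoplasts, at 97.3%, and young mitoplasts had 92.7%, senescent whole cells 76.2% and young whole cells 53.7%. Ratios are log2 with a pseudocount of 1, a minimum of 5 FPKM and a bound of 1, and a pseudocount understates the change of low genes. Values were written out for members past the bound in whole cells, the 3 highest and 3 lowest in each other comparison, members at 0 and paralogs. Each comparison sets 1 library against 1, so no test was run. The steps were tested on simulated data. Python 3.11.15 with pandas 2.3.3, numpy 2.4.6 and matplotlib 3.10.9 was used. The members and lists were chosen with earlier results of these data known. Some genes of the wider pathway list are not reported here.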

Additional observations from a re-analysis of the deposited data

Results flagged for a closer look

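GPI and PDHB went in opposite directions between fractions in the 2 ages. GPI had a log2 ratio of mitoplasts to whole cells of −1.59 in senescent cells and 1.18 in young cells. PDHB had −2.70 in senescent cells and 1.40 in young cells. Under median-of-ratios scaling GPI was at −0.43 in senescent cells, inside the bound of 1, and with protein-coding transcripts alone PDHB was at 0.57 in young cells. The values of GPI leave out transcripts with identifiers outside the tables, in a locus that it shares with other genes. These held 103 FPKM in senescent whole cells, 196 FPKM in young whole cells and 120 FPKM in young mitoplasts. Which gene they belong to is not known, so the direction of GPI in young cells is uncertain. The difference between the ages was not tested, since each group holds 1 library.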

How the results depend on the processing

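Alternatives were a pseudocount of 0.1, a minimum of 1 FPKM or none, median-of-ratios scaling, protein-coding transcripts alone, assembled transcripts added and members at 0 kept, and, chosen after seeing the data, identifiers outside the tables added and identifiers of the library's own file. No paired analysis was possible because each group holds 1 library. Without replicates, a median was taken as moved past a factor of 1.5 and a count likewise. Median-of-ratios scaling gave medians of −1.18 (glycolytic) and −0.38 (matrix) for senescent against young mitoplasts, and −0.038 and 0.24 for mitoplasts against whole cells in senescent cells. The members past the bound numbered 16 between fractions of young cells and 10 between those of senescent cells, and PFKL reversed to 0.029, against −1.03, between fractions of senescent cells. Protein-coding transcripts alone gave −1.95 for the glycolytic median and −0.99 for its difference from the matrix median between fractions of senescent cells. With members at 0 kept, the matrix median of senescent against young mitoplasts was −2.07 and the difference of the medians 0.051, and the difference between fractions of senescent cells was 0.27. The cause was not tested beyond what each alternative adds or removes. The unknown depth limits all low values.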
